A study of Rattus norvegicus with 6 samples.

Results

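The sodium-potassium ATPase moves sodium out of the cell and potassium in, at the cost of ATP. Its catalytic subunit needs a beta subunit, a glycoprotein that brings it to the plasma membrane, and small FXYD proteins bind the assembled pump and tune its affinity and rate. Cardiac glycosides act on this pump, and in the heart it sets the sodium gradient on which calcium removal by the sodium-calcium exchanger depends. The genes described here are the beta subunits Atp1b1, Atp1b2 and Atp1b3 and the FXYD regulators Fxyd1 (phospholemman) and Fxyd5 (dysadherin), 5 of the 40154 genes in the deposited table. They were chosen by gene name, because Atp1b2 had been seen to be higher after si-GPD1L, and the question was whether the other subunits followed. The change of Atp1b2 is therefore given as a description with no test. All 5 genes had enough counts to enter the fit, in which 14852 genes were tested.

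Atrial fibroblasts of Sprague-Dawley rats aged 1 to 3 days received either a control siRNA (si-NC) or siRNA directed at GPD1L (si-GPD1L). After 24 h, RNA caught by its polyA tail was sequenced, in 3 libraries per group. The fibroblasts were primary cells enriched by letting non-myocytes adhere for 1.5 h, so the cultures were not 1 clone and could hold other heart cells. Both groups carried a transfected siRNA, and all libraries bear the treatment label Atrial differentiation, which is not explained further. Each library held 16892255 to 20149732 counts. The labels do not say whether the libraries of a group came from separate cultures or animals, or whether the last digit of the 3 si-GPD1L titles counts replicates or siRNAs, so p-values measure only the spread between these libraries. Gpd1l itself had 262, 332 and 313 normalized counts (counts scaled to a common library size) in si-NC, against 220, 208 and 302 for the libraries that bear the label si-GPD1L (adjusted p = 0.234, edgeR's quasi-likelihood test). The library labelled si-GPD1L replicate 3 thus lay inside the si-NC range for the targeted gene. The fibroblast markers Col1a1, Col3a1, Pdgfra and 7 others all passed the filter on low counts. So did all 10 cardiomyocyte and all 10 macrophage markers, so passing does not tell the cell type. The 10 fibroblast markers together held 6.99% to 8.54% of the counts, and the 10 cardiomyocyte markers 0.171% to 0.199%. Most of the fibroblast share was Col1a1 and Col3a1, which averaged 762835 and 548766 normalized counts in si-NC, so the share says little of the other markers. Tnnt2 and Myh6, of the cardiomyocyte list, averaged 10910.5 and 7686 in si-NC, above Pdgfra at 5052, while Myl7 of that list averaged 195. Across all genes, 6.36% passed an adjusted p of 0.05, split into 4.03% higher and 2.33% lower after si-GPD1L, and the groups did not overlap for 29.0% of the genes tested.

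The promoter sequences are shown for the 2 genes whose groups separated, Atp1b2 and Fxyd5, and for Atp1b3, a subunit whose groups overlapped. They are taken from RefSeq (build GRCr8), in which 4 of the 5 genes had an entry, and each gives the 250 bases before a transcription start, 5′ to 3′ on the strand of the gene, which is the minus strand for all 3. Capitals mark matches on both strands to 5 motifs. The TATA box was searched as TATAAA, near which transcription is known to start in many regulated genes. The GC box, to which factors of the Sp family are known to bind, was searched as GGGCGG. The CCAAT box, known as the site of nuclear factor Y, was searched by the letters of its name. An interferon response core was searched as GAAANNGAA and a gamma-activated sequence, known to be bound by STAT proteins, as TTCNNNGAA. Fxyd5 has 2 annotated starts.
Atp1b2, chr10:54823709-54823958: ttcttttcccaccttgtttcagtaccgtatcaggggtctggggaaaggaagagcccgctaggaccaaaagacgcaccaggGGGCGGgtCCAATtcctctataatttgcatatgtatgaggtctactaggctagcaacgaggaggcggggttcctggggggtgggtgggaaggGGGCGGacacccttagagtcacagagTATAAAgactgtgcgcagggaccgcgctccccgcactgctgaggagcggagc
Fxyd5 upstream start, chr1:95404723-95404972: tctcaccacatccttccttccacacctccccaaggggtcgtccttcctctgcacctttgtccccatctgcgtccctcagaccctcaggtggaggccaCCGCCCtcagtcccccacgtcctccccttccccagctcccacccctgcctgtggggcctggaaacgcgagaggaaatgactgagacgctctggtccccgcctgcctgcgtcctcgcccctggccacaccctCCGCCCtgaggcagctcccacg
Fxyd5 downstream start, chr1:95404375-95404624: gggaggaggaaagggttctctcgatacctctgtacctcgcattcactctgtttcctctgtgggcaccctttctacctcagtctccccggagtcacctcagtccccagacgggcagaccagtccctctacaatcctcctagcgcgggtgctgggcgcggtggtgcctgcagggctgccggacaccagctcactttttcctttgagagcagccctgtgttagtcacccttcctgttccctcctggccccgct
Atp1b3, chr8:105821152-105821401: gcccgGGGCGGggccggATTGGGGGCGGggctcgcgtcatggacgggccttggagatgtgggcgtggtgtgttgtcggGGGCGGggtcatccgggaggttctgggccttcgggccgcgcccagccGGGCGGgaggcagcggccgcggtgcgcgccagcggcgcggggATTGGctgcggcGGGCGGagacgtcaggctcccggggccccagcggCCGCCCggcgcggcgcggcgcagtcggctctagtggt

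The Atp1b2 window held a TATA box 52 to 47 bases before the start, together with 2 GC boxes and 1 CCAAT box. The Atp1b3 window held 6 GC boxes and 2 CCAAT boxes, and 79.6% of its bases were G or C, against 58.0% for Atp1b2. The upstream Fxyd5 window held 2 GC boxes, and the downstream one held none of the 5 motifs. No match to the interferon response core or the gamma-activated sequence was present in these 4 windows. Of all 33469 promoter windows of this length, 12.9% held TATAAA, 30.5% a GC box, 34.0% a CCAAT box, 8.12% the interferon response core and 7.67% the gamma-activated sequence. These matches describe the letters only.

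Atp1b2 encodes the beta 2 subunit, also known as the adhesion molecule on glia, which serves both as a pump subunit and in contacts between neural cells. Its position (gene ID 24214) is chromosome 10, bases 56205622 to 56211879, minus strand, as the deposited table gives it, and rn6 is the build listed in the submitters' processing notes. No other gene in the table overlaps it. Its raw counts were 39, 41 and 47 in si-NC and 75, 95 and 173 in si-GPD1L. Every si-GPD1L library lay above every si-NC library, as for 15.1% of all genes tested, and Atp1b2 was chosen for its rise. Replicate 3 of si-GPD1L lay apart from replicates 1 and 2. The normalized counts were 38.6, 43.4 and 45.9 in si-NC and 81.8, 86.3 and 172.7 in si-GPD1L. The group means were 42.6 ± 3.72 and 113.6 ± 51.2 (SD, n = 3 each), giving a log2 fold change of 1.41 (standard error 0.28, 95% interval 0.80 to 2.03), or 2.66-fold.

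Replicate 3 lay beyond the counting error of the other si-GPD1L libraries. The exact 95% Poisson interval of the raw count, which covers counting error only, was 148 to 201 in replicate 3, against 59.0 to 94.0 in replicate 1 and 76.9 to 116 in replicate 2. In si-NC the intervals of the 3 libraries overlapped each other, from 27.7 to 62.5 counts in all. Atp1b2 was 0.98 higher in log2, or 1.97-fold, when si-GPD1L replicate 3 was left out, against 3.02-fold without replicate 1 and 2.99-fold without replicate 2. Replicate 3, the library with the highest Atp1b2, was also the si-GPD1L library with the most Gpd1l counts, and what this has to do with the Atp1b2 level was not tested. The 3 annotated Atp1b2 transcripts carried nearly the same reads, with 75, 95 and 170 counts for NM_012507.3 and 75, 95 and 173 for both XM_006246580.3 and XM_006246581.3 in si-GPD1L, so the counts do not separate them.

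**Figure D1:**
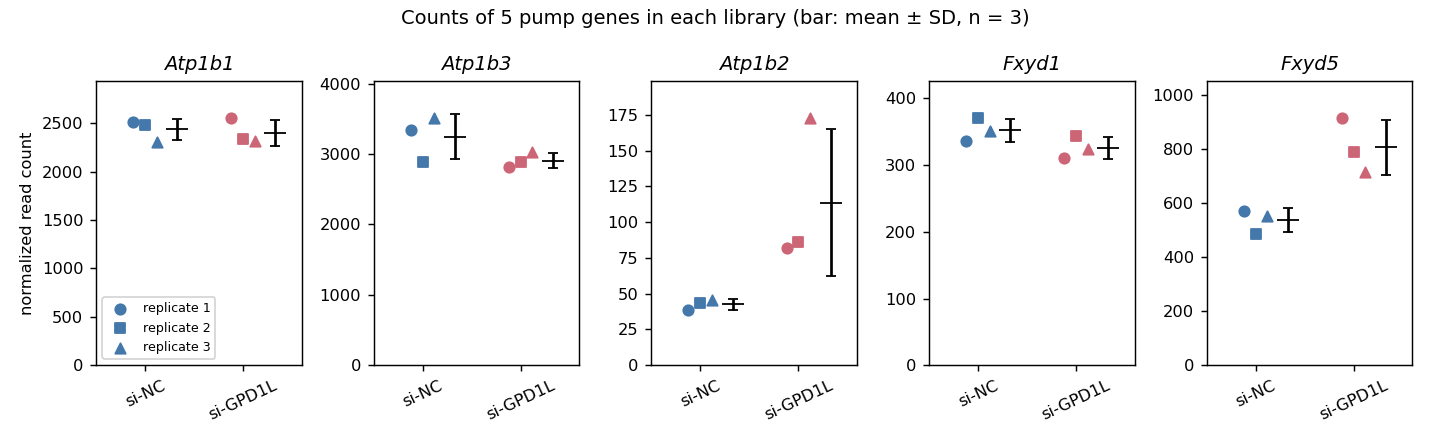
Normalized read counts (vertical axes from 0) of Atp1b1, Atp1b3, Atp1b2, Fxyd1 and Fxyd5 in the 3 si-NC (blue) and 3 si-GPD1L (red) libraries, with the replicate given by the symbol and the mean ± SD as a bar. The groups separate for Atp1b2, with replicate 3 of si-GPD1L at 172.7, and for Fxyd5, while those of Atp1b1, Atp1b3 and Fxyd1 overlap.

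No rise was found for the other beta subunits. Of the 4 genes tested beside Atp1b2, 1 passed an adjusted p of 0.05, Fxyd5, and the 3 others had log2 fold changes from -0.16 to -0.021. The median over the 4 was -0.066, against -0.0049 over all genes tested. The 6.36% of all genes that passed is the background for this count.

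Atp1b1 encodes the beta 1 subunit, the widely expressed partner of the catalytic subunit. It had 2512, 2483 and 2310 normalized counts in si-NC and 2553, 2333 and 2313 in si-GPD1L, and the groups overlapped over almost their whole range. The log2 fold change was -0.021 (standard error 0.071, adjusted p = 0.894, edgeR's quasi-likelihood test). The 95% interval of the difference ran from 88.5% to 109.7% of the si-NC level, so a change of the size seen for Atp1b2 lay well outside it. The gene (chromosome 13, 82737161 to 82757681, minus strand) overlaps a second annotated gene on the same strand, ENSRNOG00000002934.7 (769 to 890 raw counts), by 7510 bases, and overlaps Nme7 on the other strand by 223 bases. How the counting treated reads in these overlaps is not given in the sources used here, so the Atp1b1 level itself is uncertain.

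Atp1b3 encodes the beta 3 subunit (chromosome 8, 104190032 to 104221342, minus strand). Its normalized counts were 3343, 2890 and 3512 in si-NC and 2814, 2882 and 3025 in si-GPD1L. All but 1 of the si-NC libraries lay above the si-GPD1L range, and si-NC replicate 2 lay inside it. The log2 fold change was -0.16 (standard error 0.081, adjusted p = 0.269, edgeR's quasi-likelihood test), with a 95% interval from 79.2% to 101% of the si-NC level. Leaving out 1 library at a time moved it between -0.24 and -0.10.

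Fxyd1 encodes phospholemman, the main FXYD regulator of the pump in heart muscle, where its phosphorylation relieves a brake on the pump. Its normalized counts were 336, 370 and 350 in si-NC and 311, 344 and 323 in si-GPD1L, with overlapping ranges. The log2 fold change was -0.11 (standard error 0.094, adjusted p = 0.527, edgeR's quasi-likelihood test), with a 95% interval from 80.4% to 107% of the si-NC level.

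Fxyd5 encodes dysadherin, an FXYD protein with a long extracellular part that binds the pump and has been tied to weaker cell-cell adhesion. It was the 1 gene of the 4 that rose. Normalized counts were 570, 487 and 553 in si-NC and 915, 788 and 716 in si-GPD1L, so the lowest si-GPD1L library lay above the highest si-NC library. The group means were 537 ± 43.9 and 806 ± 101 (SD, n = 3 each), with a log2 difference of 0.59 (SE 0.10, adjusted p = 0.00477, edgeR's quasi-likelihood test) or 1.50-fold with a 95% interval of 1.29 to 1.75. It stayed under an absolute log2 fold change of 1. In si-GPD1L the order of the libraries was the reverse of that for Atp1b2, with Fxyd5 highest in replicate 1 and lowest in replicate 3.

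Fxyd5 lies on the minus strand of chromosome 1 (89464853 to 89474450), next to Fxyd7 (89474601 to 89484069) and Fxyd1 (89484197 to 89488279) on the same strand. No rise was found for these neighbours. The groups overlapped for Fxyd1, and Fxyd7 had 8, 5 and 5 raw counts in si-NC and 1, 3 and 1 in si-GPD1L, too few to be tested. The ratio of Fxyd5 to Fxyd1 in the authors' TPM values, which are counts per length scaled to a common sum and in which any factor per library cancels, was 0.86 ± 0.11 for si-NC and 1.40 ± 0.23 for si-GPD1L (SD, n = 3 each). It ranged from 0.74 to 0.95 and from 1.25 to 1.66, with no overlap. Each of the 5 annotated Fxyd5 transcripts had more raw counts in every si-GPD1L library than in any si-NC library. The most counted, NM_021909.2, had 549, 431 and 529 in si-NC and 777, 811 and 676 in si-GPD1L. The transcripts share reads and are not separate measurements.

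The remaining beta and FXYD genes were looked at as the surrounding of these 5 genes. Of 11 beta and FXYD genes in all, 7 passed the filter on low counts, and of the 6 tested besides Atp1b2 only Fxyd5 passed an adjusted p of 0.05 (16.7%, against 6.36% of all genes). Their median log2 fold change was -0.066, with 2 above 0, Fxyd5 and Fxyd6. The groups did not overlap for 1 of the 6, Fxyd5, in which si-GPD1L lay above, as it did for 15.1% of all genes tested.

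Fxyd6, a regulator first described in brain, had a log2 fold change of 0.058 (adjusted p = 0.692), and Fxyd2, the gamma subunit known from kidney, one of -0.21 (adjusted p = 0.626). Both had overlapping groups, with 1219 to 1324 against 1241 to 1376 normalized counts for Fxyd6 and 68.2 to 100.5 against 52.7 to 87.8 for Fxyd2. Atp1b4, Fxyd3, Fxyd4 and Fxyd7 did not pass the filter.

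**Figure D2:**
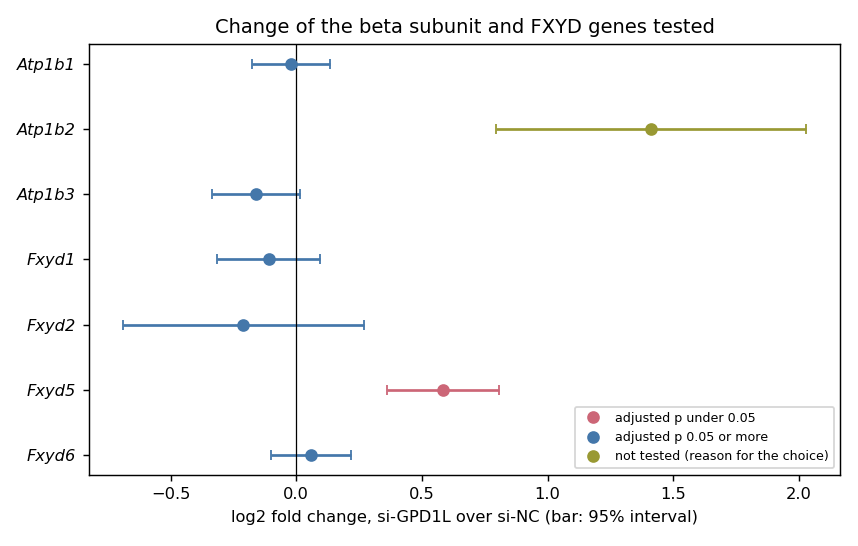
Log2 fold changes (horizontal axis, si-GPD1L over si-NC) of the 7 beta subunit and FXYD genes that passed the filter, with 95% intervals from the fit over all genes and colors for the adjusted p. Among the genes tested, the interval of Fxyd5 (0.36 to 0.81) is the 1 that lies above 0 throughout, and that of Atp1b2 is shown as a description.

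Levels of different genes were compared per length, in TPM. This scale assumes reads along the whole transcript, while the labels describe PolyA-Seq as based on the 3′ end, so the order between genes of different length is uncertain. In si-NC the order of mean TPM was Atp1b3 at 229 ± 24.9, Atp1b1 at 141 ± 4.95, Fxyd6 at 91.5 ± 7.77, Fxyd1 at 53.7 ± 4.74, Fxyd5 at 46.0 ± 3.30, Fxyd2 at 13.1 ± 3.05 and Atp1b2 at 1.79 ± 0.24 (SD, n = 3). Of these neighbours, Fxyd1 (48.4 to 57.5 TPM) and Fxyd5 (42.6 to 49.2 TPM) overlapped in si-NC, and the ranges of the others did not. In si-GPD1L Fxyd5 stood above Fxyd1 in every library, with 65.2 to 82.6 TPM against 49.8 to 55.7 TPM, and Atp1b2 kept its place after Fxyd2 at 5.06 ± 2.29 TPM. TPM depends on the makeup of each library, and the median gene tested was 0.078 higher in si-GPD1L on the log2 TPM scale, so shares within a library are given for the comparison of groups.

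Among Atp1b1, Atp1b2 and Atp1b3, the smallest share was that of Atp1b2 in both groups, while the fourth beta gene, Atp1b4, lay lower still at 0.16 TPM in each group. Atp1b2 made up 0.423%, 0.521% and 0.502% of the summed TPM of Atp1b1, Atp1b2 and Atp1b3 in si-NC and 0.982%, 1.06% and 2.05% in si-GPD1L. Atp1b3 held 58.2% to 64.5% of the sum for si-NC and 56.6% to 60.1% for si-GPD1L, and Atp1b1 held 35.0% to 41.3% and 37.9% to 42.4%. The summed beta TPM was 372 ± 22.0 in si-NC and 370 ± 6.15 in si-GPD1L, with overlapping ranges. The summed TPM of the FXYD genes was 206 ± 15.2 in si-NC and 239 ± 2.05 in si-GPD1L (SD, n = 3 each), without overlap. The offset of the median gene between groups, 0.078 in log2 TPM, was not removed from the beta or the FXYD sum. Of the FXYD sum, Fxyd5 took 20.1% to 24.5% for si-NC and 27.5% to 34.5% for si-GPD1L. Fxyd1 took 25.5% to 27.2% and 20.8% to 23.1%, while its own TPM overlapped between groups (53.7 ± 4.74 and 52.6 ± 2.96). A share falls when another part of the sum rises, so the lower Fxyd1 share does not show less Fxyd1 RNA.

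**Figure D3:**
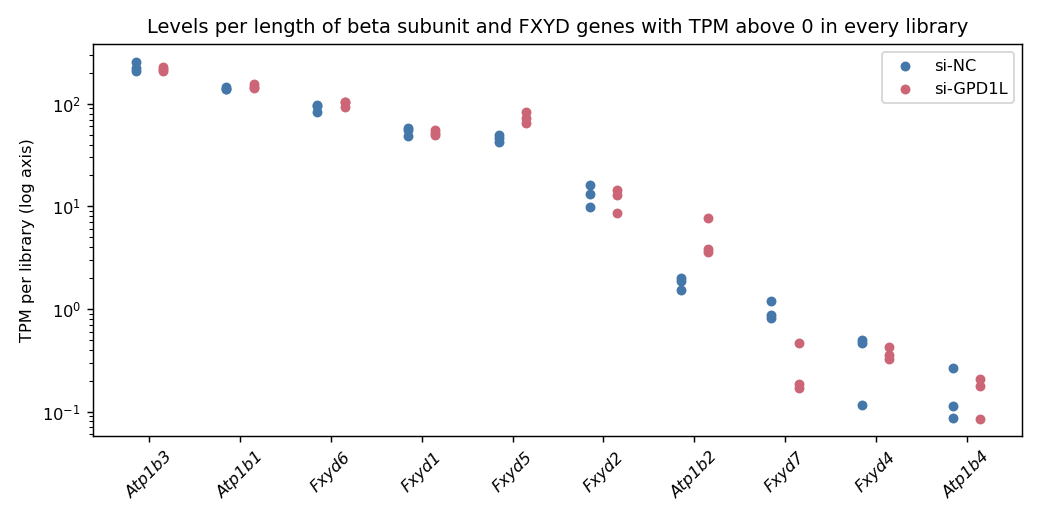
TPM in each library (vertical log axis) of the 10 beta subunit and FXYD genes with a value above 0 in all 6 libraries, ordered by their si-NC mean, with si-NC in blue and si-GPD1L in red. Atp1b2 lies far below Atp1b3 and Atp1b1 in both groups, and Fxyd5 lies near Fxyd1 in si-NC and above it in si-GPD1L.

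The genes most like Atp1b2 were taken as those with the smallest root mean square difference in centred log2 normalized counts over the 6 libraries, with 10948 candidates that carry a gene name and average 50 normalized counts or more. They were Cd274 (difference 0.28), Cnksr1 (0.32), Col24a1 (0.32), Slc28a2 (0.32) and Slfn5 (0.33). The average was taken over all 6 libraries, and Cd274 and Cnksr1 reached 50 only through si-GPD1L. Their means were 39.2 and 39.9 in si-NC and 82.7 and 80.4 in si-GPD1L. Cd274, which encodes the immune checkpoint ligand PD-L1, had 43.5, 36.0 and 38.1 normalized counts in si-NC and 72.0, 75.4 and 100.8 in si-GPD1L. Like Atp1b2 it was highest in si-GPD1L replicate 3. Of the beta and FXYD genes tested, the nearest to Atp1b2 was Fxyd5 at 0.58 and the farthest was Fxyd2 at 0.82. These genes were picked for their likeness, so their levels are a description.

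Markers of other cell types were examined because Atp1b2 is known from glia and neurons and Fxyd1 from muscle. In bulk RNA, fewer cells of a type and less RNA per cell cannot be told apart. Of 9 Schwann and glial markers, 8 were tested and 0 passed an adjusted p of 0.05 in edgeR's quasi-likelihood test (2 at an unadjusted p under 0.05), with a median log2 fold change of -0.14. Their summed normalized counts were 3568 to 3852 for si-NC and 3668 to 3969 for si-GPD1L. Most of this sum was Pmp22, which also serves outside glia and averaged 3307 and 3452 normalized counts, so the sum says little of the other markers. Foxd3 had a log2 fold change of -0.93 (adjusted p = 0.221), Ngfr of -0.49 (adjusted p = 0.187), Sox10 of -0.48 (adjusted p = 0.351) and Mbp of -0.34 (adjusted p = 0.247), while Gfap had 0.49 (adjusted p = 0.430). These values lay on both sides of 0, as 4 of the 8 were above it. Of 10 neuronal markers, Elavl3, Snap25 and Th had 0 counts in every library, 5 were tested and 0 passed (0 also at an unadjusted p under 0.05), with sums of 1212 to 1402 and 1277 to 1309 that were nearly all Tubb3 (means of 1210 and 1226).

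Of 12 endothelial markers, 11 were tested and 4 rose, Plvap, Cdh5, Pecam1 and Tie1 (36.4%, against 4.03% of all genes), with all 11 above 0 and a median log2 fold change of 0.56. Their summed normalized counts were 1978 to 2446 for si-NC and 2681 to 2823 for si-GPD1L, without overlap. Much of this sum was Flt1, which averaged 1309 and 1421 and did not pass (adjusted p = 0.518, edgeR's quasi-likelihood test). The part of endothelial cells in the Atp1b2 and Fxyd5 levels was not tested. Of 10 cardiomyocyte markers, 1 passed (10%, against 6.36% of all genes), Pln, which fell by 0.44 on the log2 scale (adjusted p = 0.0337). The list was mixed, with 4 of 10 above 0, a median of -0.094 and 5 at an unadjusted p under 0.05 on both sides of 0. Ttn had 0.36 (adjusted p = 0.214) and Actn2 0.17 (adjusted p = 0.221), against -0.25 for Tnnt2 (adjusted p = 0.103) and -0.22 for Nppa (adjusted p = 0.152). The sums ran from 34615 to 36695 for si-NC and 31280 to 34514 for si-GPD1L, without overlap. The part of cardiomyocytes in the Fxyd1 level was not tested. Of 10 macrophage markers 0 passed (0 at an unadjusted p under 0.05 too), with sums of 2859 to 3088 and 2436 to 3540. Of 8 smooth muscle and pericyte markers 1 passed (12.5%, against 6.36% of all genes), Cspg4, which rose by 0.80 on the log2 scale. It went against most of its list, of which 2 of 8 were above 0 and the median was -0.10, with Abcc9 at -0.46 (adjusted p = 0.0531) and Myh11 at -0.34 (adjusted p = 0.0813). The sums were 13596 to 16375 and 14288 to 15829. Of the 10 fibroblast markers 2 passed (20%, against 6.36% of all genes), Lum and Dcn, which fell by 0.77 and 0.66. This list was mixed too, with 2 of 10 above 0, a median of -0.12 and 5 at an unadjusted p under 0.05 on both sides of 0. The 2 above 0 were Col1a1 at 0.25 (adjusted p = 0.219, edgeR's quasi-likelihood test) and Col1a2 at 0.21 (adjusted p = 0.137). The fibroblast sums overlapped.

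Beyond the pump itself, 3 lists of related genes were counted. Among 15 other P-type pumps, such as the calcium pumps of the plasma membrane and the endoplasmic reticulum, 10 were tested and 2 rose (20%, against 4.03% of all genes), none fell, and the median log2 fold change was 0.0075. Atp13a1, a transporter of the endoplasmic reticulum, averaged 1661 ± 151 and 2254 ± 77.3 normalized counts in si-NC and si-GPD1L (SD, n = 3 each), a difference in log2 of 0.44 (adjusted p = 0.00511, edgeR's quasi-likelihood test). Atp2b4, a plasma membrane calcium pump, averaged 904 ± 169 and 1366 ± 92.3, a difference in log2 of 0.60 (adjusted p = 0.00972). With 1 library left out, Atp13a1 missed the threshold without si-GPD1L replicate 2 (adjusted p = 0.0518), and Atp2b4 missed it without si-GPD1L replicate 1 (adjusted p = 0.0584) or replicate 3 (adjusted p = 0.0558). The third gene by adjusted p was Atp12a, the non-gastric proton-potassium pump, at 0.70 with a mean of 9.13 ± 5.36 and 14.7 ± 2.97 normalized counts (adjusted p = 0.409).

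Among 16 sodium and potassium carriers, 13 were tested and 0 passed an adjusted p of 0.05 in edgeR's quasi-likelihood test (3 at an unadjusted p under 0.05), with a median log2 fold change of 0.028. Those with the smallest adjusted p were the potassium-chloride cotransporters Slc12a7 (0.29, adjusted p = 0.0567) and Slc12a4 (0.19, adjusted p = 0.211) and the sodium-potassium-chloride cotransporter Slc12a2 (-0.23, adjusted p = 0.189). Slc12a7 passed with edgeR's exact test (adjusted p = 0.0261), without the filter (0.0284) and without si-NC replicate 1 (0.0353) or 2 (0.0448), over a range up to 0.230, and Slc12a2 passed without si-NC replicate 1 (adjusted p = 0.0459). Among 20 pump regulators, anchors and interactors, 19 had a row, 16 were tested, 2 rose (12.5%, against 4.03% of all genes) and none fell, with a median of 0.11. Agrn encodes agrin, a proteoglycan of the extracellular matrix, and averaged 1553 ± 248 and 2864 ± 102 normalized counts in si-NC and si-GPD1L (SD, n = 3 each), a difference in log2 of 0.88 (adjusted p = 0.000153, edgeR's quasi-likelihood test). Sptan1, the alpha spectrin of the membrane skeleton, had a log2 fold change of 0.39 (adjusted p = 0.0295), and lost its call without si-NC replicate 2 (adjusted p = 0.0744) or without si-GPD1L replicate 1, 2 or 3 (adjusted p = 0.115, 0.167 and 0.0932). Nedd4l, a ubiquitin ligase of membrane transporters, had 0.34 (adjusted p = 0.109) and passed in 1 of 13 alternatives, without the filter on low counts (adjusted p = 0.0234).

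**Figure D4:**
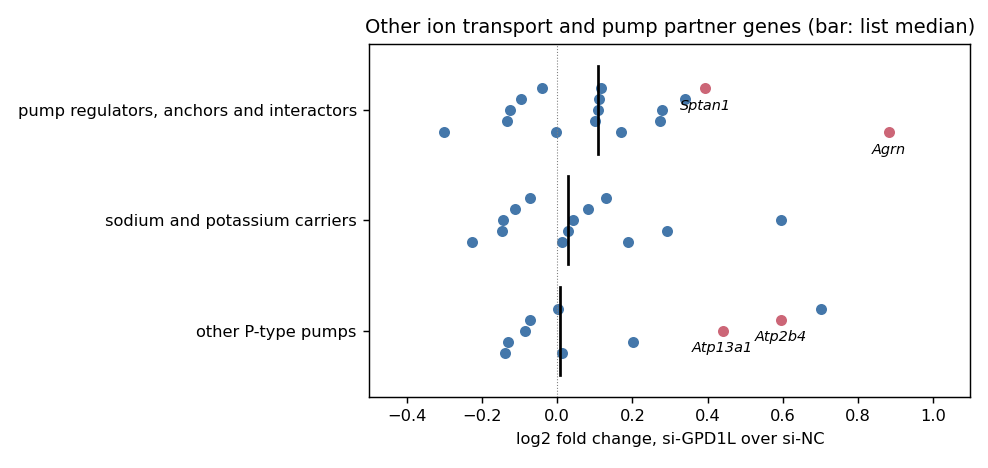
Log2 fold changes (horizontal axis, si-GPD1L over si-NC) of the tested genes of 3 lists, with red for an adjusted p under 0.05, blue otherwise and a bar at each list's median. The 4 red genes, Atp13a1, Atp2b4, Agrn and Sptan1, all lie above 0, and the medians lie between 0.0075 and 0.11.

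Fxyd5 kept its call in each of 14 alternative settings, with log2 fold changes from 0.48 to 0.66 and adjusted p from 1.80e-07 to 0.0377. Atp1b3 and Fxyd1 stayed below 0 and did not pass in any of the 14, and their adjusted p ran from 0.131 to 0.533 and from 0.412 to 0.765. Atp1b1 did not pass in any either (adjusted p from 0.694 to 0.996), and its sign turned when si-NC replicate 1 or si-GPD1L replicate 3 was left out.

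**Figure D5:**
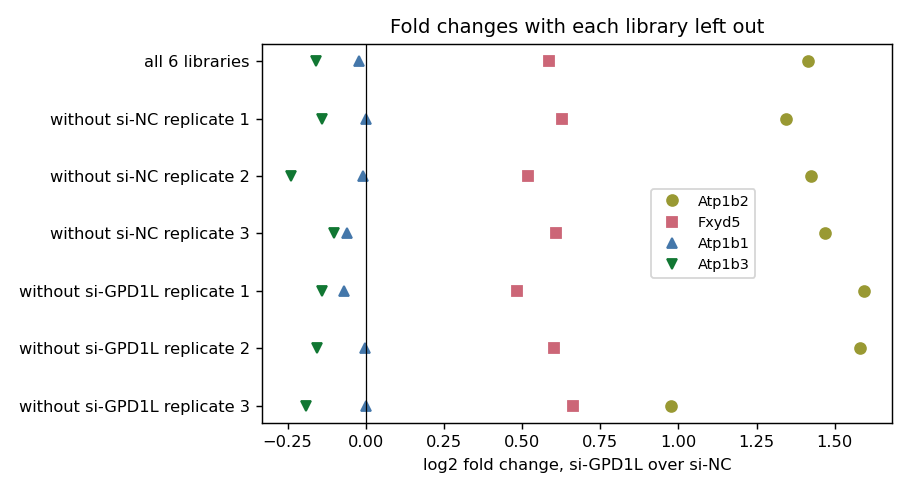
Log2 fold changes (horizontal axis) of Atp1b2, Fxyd5, Atp1b1 and Atp1b3 with all 6 libraries and with each library left out (rows). Atp1b2 drops from 1.41 to 0.98 without si-GPD1L replicate 3, and Fxyd5 stays between 0.48 and 0.66.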

How the data were processed

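RNA of 6 libraries of rat atrial fibroblasts was analysed, 3 transfected with si-NC and 3 with si-GPD1L, grouped by their titles. The authors deposited raw read counts per gene and per transcript, and TPM values per gene, which are the counts per length scaled to a common sum. The submitters' processing notes list bcl2fastq, HISAT2 2.1.0, HTSeq 0.12.4 and the build rn6, without a strand setting or annotation release. The authors' own comparison, KEGG and GO tables hold fold changes, p-values and enrichments and were not used.

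Counts were filtered with filterByExpr (14852 of 40154 genes kept), normalized by TMM and compared with the quasi-likelihood test of edgeR 4.0.16 in R 4.3.3, with Benjamini-Hochberg adjustment over all genes tested and a threshold of 0.05 on the adjusted p. Depth was 16892255 to 20149732 counts per library. The standard error is the log2 fold change divided by the square root of F. A normalized count is the count scaled by TMM to the mean library size. Pseudocounts of 1 were added for the likeness measure only. The test was tried on simulated data for si-GPD1L against si-NC (200 of 200 genes changed 4-fold recovered among 14684, with 6 false calls). The simulation gave every gene the same spread and changed only well-counted genes. It does not show how well changes smaller than 4-fold are found.

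Named were the 5 genes, the tested beta and FXYD genes, the 3 smallest adjusted p of each related list, Gpd1l, and the 5 genes most like Atp1b2. Marker genes were named from lists after their values were seen, and some genes of the lists are not reported here. Genes and lists were chosen with earlier results of these data known. Alternatives were other normalizations (DESeq2 1.42.0 size factors, upper quartile), tests (DESeq2's Wald test, edgeR's exact test), filters and thresholds, the replicate block, each library left out, and transcript counts summed per gene. The figures were drawn with matplotlib 3.10.9.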

Additional observations from a re-analysis of the deposited data

How the results depend on the processing

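Groups of 3 libraries limit the precision, and Atp1b2, with 39 to 173 counts per library, rests on few reads. Its log2 fold change left the main value by more than the spread between libraries in 1 of 14 alternatives, at 0.98 without si-GPD1L replicate 3, and ran from 0.98 to 1.59 over the fits that left out 1 library. Atp1b1 ran from -0.070 to 0.0018 in those fits. The number of genes with an adjusted p under 0.05 moved from 945 to 1528 with the exact test, 1929 without the filter and 240 with an absolute log2 fold change over 1, and ran from 361 to 1531 with 1 library left out, over 1.5 times away for each of the 6 libraries (591 without si-GPD1L replicate 3). The count of beta and FXYD genes besides Atp1b2 was 1 in each of the 14 alternatives. The count over the 3 related lists moved from 4 to 8 without the filter and ran from 2 to 6 with 1 library left out, being 2 without any 1 of the si-GPD1L libraries. Causes of these moves were not tested.

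No pairing by replicate number was seen. Libraries of the same number had correlations of deviations from -0.014 to 0.043, against -0.044 to 0.048 for unlike numbers. With 3 libraries per group, these values cannot exclude a shared culture or batch. With the replicate number as a block, 921 genes passed, 1 beta or FXYD gene and 4 genes of the related lists, and the log2 fold change was 1.37 for Atp1b2, 0.58 for Fxyd5, -0.022 for Atp1b1, -0.16 for Atp1b3 and -0.11 for Fxyd1, which changed no call among them.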
